A study of Mus musculus with 9 samples.

Results

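Expression of 10 genes of collagen crosslinking and of the matricellular matrix was described in mouse kidney, out of 55385 genes in the expression table. They were grouped by function and comprised the lysyl oxidases Lox, Loxl1 and Loxl2, the small leucine-rich proteoglycans Bgn, Dcn and Lum, and the matricellular genes Sparc, Thbs1, Tnc and Ctgf. Ctgf is listed in the table under its present symbol, Ccn2. All 10 passed the filter on low counts, which 21392 genes passed.

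Poly(A) RNA from whole kidneys of adult male C57BL/6 mice was sequenced, with 1 library per mouse and 3 mice in each of 3 groups. The paper of the study names the strain C57BL/6J. Control mice did not receive the feeding that induced the disease. HN mice had hyperuricemic nephropathy, a kidney disease induced over several weeks by feeding adenine together with potassium oxonate, an inhibitor of uricase that raises uric acid. PEC mice received the same feeding and, over the same weeks, daily oral pectolinarigenin, a plant flavonoid, at the lower of the doses that the study gave. Replicate numbers are 2, 4 and 5 for Control, 4, 8 and 12 for HN, and 1, 2 and 3 for PEC mice. Total counts per library ran from 57714111 to 81069646, with a median of 74397038. None of the sequenced groups received PEC without the feeding.

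Lysyl oxidases are secreted copper enzymes that oxidize lysine residues of collagen and elastin, and the products link neighbouring fibres into an insoluble network. Small leucine-rich proteoglycans bind to collagen fibrils and govern their spacing and diameter, and some also bind growth factors. Matricellular proteins are secreted into the matrix without forming its fibres, and they act on cells through receptors and growth factors. Fibroblasts, pericytes and other mesenchymal cells are major sources of all 3 kinds in the kidney, and these genes are well known in renal fibrosis.

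The PEC libraries stood apart in several measures. Counts at ribosomal RNA loci were at most 0.0028% of the total in Control and HN libraries, and 0.117%, 0.682% and 0.119% in PEC 1, 2 and 3. Counts at long noncoding RNA genes were 0.527% to 0.651% of the total in Control and HN libraries, and 0.962%, 1.74% and 0.923% in PEC 1, 2 and 3, a check chosen after the values were seen. Over 13452 genes, the deviation of a library from the gene mean had a Spearman correlation with gene length of 0.08 to 0.21 in Control and HN libraries and of -0.31 to -0.26 in PEC libraries. With GC content the correlation was -0.26 to -0.07 in Control and HN libraries and 0.25 to 0.31 in PEC libraries. These correlations are across genes, which are not independent replicates. The labels name no batch, so a difference in library preparation and the treatment cannot be told apart. Mitochondrial genes took 12.9% to 16.3% of counts in Control, 6.01% to 6.34% in HN and 10.3% to 13.6% in PEC libraries.

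Levels below are the deposited FPKM (fragments relative to gene length and library total) divided by the TMM factor of the library, called scaled FPKM, which allows levels to be set side by side between genes and between libraries. The factors were 0.778 to 0.832 in Control, 1.15 to 1.22 in HN and 1.02 to 1.05 in PEC libraries. The counts were fitted with edgeR's quasi-likelihood test for fold changes. Calls required a 1.5-fold change or more together with an adjusted p (Benjamini-Hochberg, over all tested genes) no higher than 0.05.

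HN kidneys were compared with Control kidneys to show how the 10 genes stood in the disease model. All 10 were called higher in HN mice, against 17.7% of all tested genes called higher and 14.7% called lower. The median log2 fold change was 2.35 over the 10 genes and -0.0008 over all tested genes. In PEC against HN mice, which asks what accompanied the treatment, 8 of the 10 were called lower, against 15.3% of all tested genes called lower and 13.4% called higher. The median log2 fold change there was -1.11 over the 10 genes and -0.02 over all tested genes. In PEC against Control mice 7 of the 10 were called higher, against 18.9% of all tested genes called higher and 17.4% called lower, with medians of 0.97 and 0.04. The comparisons share mice (the HN mice, the PEC mice or the Control mice), so their values are given side by side and not as independent results. In whole kidney, more or fewer cells of a type and more or less RNA per cell cannot be told apart.

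**Figure D1:**
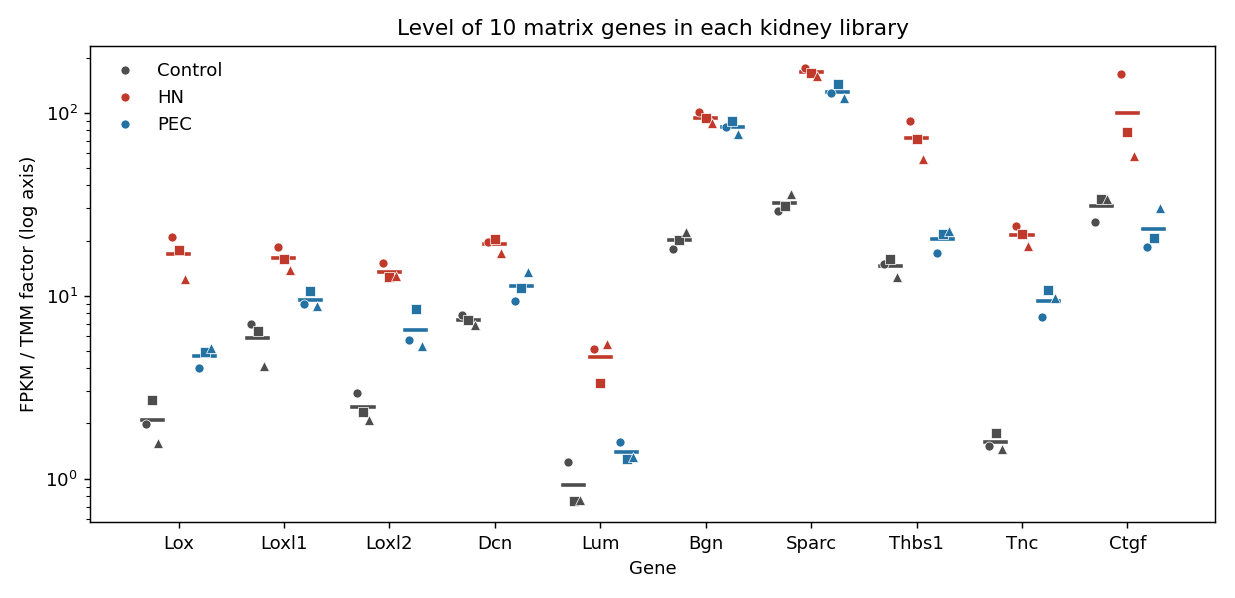
Level of the 10 genes in each of the 9 libraries, as scaled FPKM on a log axis. Each point is 1 mouse (circle, square and triangle are the libraries of a group in the order of their numbers) and bars are group means. For Sparc and Bgn the PEC points lie close to the HN points, whereas for Ctgf they overlap the Control points.

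Lox encodes the founding lysyl oxidase and lies on the minus strand at chr18:52516067-52529867 (GRCm38; ENSMUSG00000024529). Its scaled FPKM was 1.98, 2.69 and 1.56 in Control 2, 4 and 5, 20.97, 17.7 and 12.3 in HN 4, 8 and 12, and 3.998, 4.90 and 5.17 in PEC 1, 2 and 3. The 3 groups did not overlap, and PEC libraries lay between the others. Lox was 8.31-fold higher in HN than in Control mice (log2 3.05, SE 0.25, adjusted p = 2.00e-05 by edgeR's quasi-likelihood test with Benjamini-Hochberg adjustment). It fell by 1.84 on the log2 scale in PEC against HN mice (SE 0.24, edgeR adjusted p = 0.00046) and was 2.33-fold higher in PEC than in Control mice (log2 1.22, SE 0.24, edgeR adjusted p = 0.00282).

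Loxl1, an enzyme that acts chiefly on elastic fibres, lies at chr9:58287738-58313186 on the minus strand (ENSMUSG00000032334). In scaled FPKM, Loxl1 stood at 7.02, 6.40 and 4.10 in Control 2, 4 and 5, 18.5, 15.8 and 13.8 in HN 4, 8 and 12, and 8.95, 10.6 and 8.72 in PEC 1, 2 and 3. The groups did not overlap, but the step from Control to PEC was small. Loxl1 was 2.79-fold higher in HN than in Control mice (log2 1.48, SE 0.20, edgeR adjusted p = 0.000341) and fell by 0.75 on the log2 scale in PEC against HN mice (SE 0.20, edgeR adjusted p = 0.0151). The call in PEC against HN mice was lost without HN 4 (log2 -0.64, edgeR adjusted p = 0.0568) and without PEC 3 (log2 -0.68, edgeR adjusted p = 0.0503). In PEC against Control mice Loxl1 was called higher (log2 0.73, SE 0.20, edgeR adjusted p = 0.014), a call lost without Control 5 (log2 0.52, under the fold required).

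Loxl2, which crosslinks collagen IV of basement membranes, lies at chr14:69609068-69695834 on the plus strand (ENSMUSG00000034205). Loxl2 had a scaled FPKM of 2.94, 2.32 and 2.08 in Control 2, 4 and 5, 15.0, 12.7 and 12.9 in HN 4, 8 and 12, and 5.74, 8.46 and 5.29 in PEC 1, 2 and 3. All HN libraries were above all PEC libraries, and these above all Control libraries. Loxl2 was 5.61-fold higher in HN than in Control mice (log2 2.49, SE 0.20, edgeR adjusted p = 1.60e-05) and fell by 1.04 on the log2 scale in PEC against HN mice (SE 0.19, edgeR adjusted p = 0.0025). It remained 2.73-fold higher in PEC than in Control mice (log2 1.45, SE 0.19, edgeR adjusted p = 0.000302).

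The Loxl2 counts carry an uncertainty, found after the values were seen. An identical stretch of 2348 bases occurs in transcripts of the pseudogene Gm21451, elsewhere on chromosome 14. Gm21451 had a count of 1713 in HN 12 and 0 in HN 4 and 8, beside Loxl2 counts of 7068, 7642 and 7414 in these libraries. In PEC 1, 2 and 3 it had counts of 333, 482 and 196, beside Loxl2 counts of 2742, 3390 and 1960. On the opposite strand, the long noncoding gene Gm27177 overlaps exons of Loxl2. It had counts of 9 to 19 in all 6 Control and HN libraries and of 2058, 2006 and 2119 in PEC 1, 2 and 3. How reads were assigned to copies and strands is not given in the sources used here, so the PEC values of Loxl2 in particular may hold reads of other genes, or lack its own. Ctgf also has an antisense gene, Gm15270, with counts of 40 to 288, at most 3.40% of those of Ctgf in the same library. Antisense genes of Thbs1 (Gm29233, counts of 0 to 10) and Tnc (8030451A03Rik, counts of 0 to 59) reached at most 0.0588% and 0.851%. The antisense gene of Lox, AC161119.1, is not in the expression table, so its share is not known.

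Of the other 2 lysyl oxidases, Loxl3 was called higher in HN mice and Loxl4 was not called. Loxl3 had a mean scaled FPKM of 0.542 ± 0.159 (SD, n = 3) in Control mice, 2.88 ± 0.225 in HN mice and 2.69 ± 0.448 in PEC mice. Its log2 fold change was 2.43 in HN against Control mice (SE 0.23, edgeR adjusted p = 3.58e-05) and -0.08 in PEC against HN mice (SE 0.21, edgeR adjusted p = 0.799). Loxl4 had 0.886 ± 0.316 in Control mice, 1.04 ± 0.177 in HN mice and 0.669 ± 0.351 in PEC mice on the same scale, with an edgeR adjusted p of 0.684 in HN against Control mice.

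Bgn encodes biglycan, which also binds Toll-like receptors when soluble, and lies at chrX:73483602-73495933 on the plus strand (ENSMUSG00000031375). Its scaled FPKM was 18.1, 20.1 and 22.2 in Control 2, 4 and 5, 101.0, 93.3 and 87.9 in HN 4, 8 and 12, and 83.7, 90.5 and 76.1 in PEC 1, 2 and 3. HN and PEC libraries overlapped on this scale, and both lay far above Control. Bgn was 4.75-fold higher in HN than in Control mice (log2 2.25, SE 0.10, edgeR adjusted p = 1.65e-06) and was not called in PEC against HN mice (log2 -0.16, 95% confidence interval -0.38 to 0.07, edgeR adjusted p = 0.253). It was 4.26-fold higher in PEC than in Control mice (log2 2.09, SE 0.10, edgeR adjusted p = 3.96e-06). On the deposited FPKM, without the TMM factor, Bgn ran from 79.6 to 92.5 in PEC and from 107.5 to 115.9 in HN libraries and did not overlap.

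Dcn encodes decorin, a proteoglycan that binds collagen I fibrils and TGF-beta, and lies at chr10:97479609-97518143 on the plus strand (ENSMUSG00000019929). Dcn had a scaled FPKM of 7.88, 7.36 and 6.88 in Control 2, 4 and 5, 19.8, 20.5 and 17.2 in HN 4, 8 and 12, and 9.35, 11.04 and 13.5 in PEC 1, 2 and 3. The groups did not overlap. Dcn was 2.64-fold higher in HN than in Control mice (log2 1.40, SE 0.14, edgeR adjusted p = 5.26e-05) and fell by 0.74 on the log2 scale in PEC against HN mice (SE 0.14, edgeR adjusted p = 0.0027).

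The call of Dcn in PEC against HN mice was lost when gene length and GC content were included in the fit. With offsets for length and GC content in each library, the log2 fold change of Dcn in PEC against HN mice was -0.12 (edgeR adjusted p = 0.472), and in PEC against Control mice it was 1.41 in place of 0.66. That was the highest adjusted p of Dcn in PEC against HN mice over 18 other ways of processing the data. The GC content of transcripts was 40.1% for Dcn, 41.9% for Lum and 43.3% for Lox, the lowest values of the 10 genes. Gene length was 6.46 kb for Dcn, 5.30 kb for Lox and 2.72 kb for Lum, the shortest of the 10. With the same offsets Lum fell by 1.44 and Lox fell by 1.43 on the log2 scale in PEC against HN mice, and both were still called. The offsets take length and GC content together, and the part of either in the values of Dcn was not tested.

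Lum encodes lumican, a keratan sulfate proteoglycan of collagen fibrils, and lies at chr10:97565128-97572703 on the plus strand (ENSMUSG00000036446), beside Dcn. In scaled FPKM, Lum stood at 1.23, 0.757 and 0.759 in Control 2, 4 and 5, 5.12, 3.32 and 5.45 in HN 4, 8 and 12, and 1.58, 1.28 and 1.32 in PEC 1, 2 and 3. HN libraries lay well above the others, and the lowest PEC library was just above the highest Control library. Lum was 5.13-fold higher in HN than in Control mice (log2 2.36, SE 0.27, edgeR adjusted p = 0.000121) and fell by 1.71 on the log2 scale in PEC against HN mice (SE 0.26, edgeR adjusted p = 0.00103). It rested on the fewest reads of the 10 genes, with counts of 124 to 204 in Control, 882 to 1356 in HN and 222 to 341 in PEC libraries. In PEC against Control mice Lum was not called (log2 0.65, SE 0.26, edgeR adjusted p = 0.0686) but was called under 8 of 18 other ways of processing, over which its adjusted p was at most 0.19, among them the offsets for length and GC content (log2 1.08, edgeR adjusted p = 0.00962).

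Of the 10 other proteoglycans of this family tested, 2 were called higher in HN mice (17.7% of all tested genes) and 3 lower (14.7%). Their median log2 fold change was -0.07. Scaled by library totals only, which raised the median of all tested genes to 0.56, 5 were called higher and 1 lower. Prelp rose from a mean scaled FPKM of 5.69 ± 1.26 (SD, n = 3) in Control to 14.2 ± 1.02 in HN mice and was 7.21 ± 1.23 in PEC mice. Omd fell from 1.61 ± 0.459 in Control to 0.418 ± 0.164 in HN mice and was 0.441 ± 0.126 in PEC mice. Podnl1 was called higher (log2 3.16, SE 0.46, edgeR adjusted p = 0.00055) and Nyx lower (log2 -1.60, SE 0.43, edgeR adjusted p = 0.015), both at counts under 200 in every library. In PEC against HN mice 2 of the 10 were called lower, Prelp among them, and 0 higher, against 15.3% and 13.4% of all tested genes.

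Sparc encodes osteonectin, a collagen-binding glycoprotein needed for fibril assembly, and lies at chr11:55394500-55423183 on the minus strand (ENSMUSG00000018593). Sparc had a scaled FPKM of 29.1, 31.0 and 36.1 in Control 2, 4 and 5, 176.5, 164.8 and 158.9 in HN 4, 8 and 12, and 128.7, 142.7 and 119.8 in PEC 1, 2 and 3. PEC libraries were all below HN libraries but much closer to them than to Control. Sparc was 5.28-fold higher in HN than in Control mice (log2 2.40, SE 0.11, edgeR adjusted p = 1.39e-06). In PEC against HN mice its log2 fold change was -0.34 (95% confidence interval -0.56 to -0.11, edgeR adjusted p = 0.0255), below the fold required for a call. It was 4.18-fold higher in PEC than in Control mice (log2 2.07, SE 0.10, edgeR adjusted p = 3.97e-06).

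Thbs1 encodes thrombospondin 1, an activator of latent TGF-beta, and lies at chr2:118111876-118127133 on the plus strand (ENSMUSG00000040152). Its scaled FPKM was 15.0, 15.9 and 12.7 in Control 2, 4 and 5, 90.2, 71.5 and 55.8 in HN 4, 8 and 12, and 17.1, 21.7 and 22.6 in PEC 1, 2 and 3. HN libraries lay far above the others, and PEC libraries just above Control. Thbs1 was 5.08-fold higher in HN than in Control mice (log2 2.34, SE 0.19, edgeR adjusted p = 1.63e-05) and fell by 1.81 on the log2 scale in PEC against HN mice (SE 0.18, edgeR adjusted p = 0.000133). In PEC against Control mice its log2 fold change was 0.54 (edgeR adjusted p = 0.0342), under the fold required, and it was called under 8 of 18 other ways of processing, over which its adjusted p was at most 0.111.

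Tnc encodes tenascin C, a matrix glycoprotein made mainly in development and injury, and lies at chr4:63959785-64020725 on the minus strand in the table (ENSMUSG00000028364). Tnc reached a scaled FPKM of 1.52, 1.77 and 1.45 in Control 2, 4 and 5, 23.9, 21.8 and 18.6 in HN 4, 8 and 12, and 7.68, 10.7 and 9.72 in PEC 1, 2 and 3. The groups did not overlap. Tnc had the largest fold change of the 10 genes in HN against Control mice, at 13.8-fold (log2 3.79, SE 0.16, edgeR adjusted p = 1.26e-06), and fell by 1.18 on the log2 scale in PEC against HN mice (SE 0.14, edgeR adjusted p = 0.000291). It remained 6.11-fold higher in PEC than in Control mice.

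Ctgf encodes connective tissue growth factor, a matricellular protein induced by TGF-beta and by mechanical load, and lies at chr10:24595442-24598683 on the plus strand (ENSMUSG00000019997). In scaled FPKM, Ctgf stood at 25.2, 33.8 and 33.7 in Control 2, 4 and 5, 162.2, 78.8 and 58.3 in HN 4, 8 and 12, and 18.5, 20.6 and 30.1 in PEC 1, 2 and 3. HN 4 stood well above the other HN libraries, and PEC and Control libraries overlapped. Ctgf was 3.28-fold higher in HN than in Control mice (log2 1.71, SE 0.36, edgeR adjusted p = 0.00411), and without HN 4 the log2 fold change was 1.18 (edgeR adjusted p = 0.00582). It fell by 2.09 on the log2 scale in PEC against HN mice (SE 0.36, edgeR adjusted p = 0.00197), and without HN 4 by 1.56 (edgeR adjusted p = 0.00244). In PEC against Control mice Ctgf was not called (log2 -0.38, 95% confidence interval -1.17 to 0.41, edgeR adjusted p = 0.404). Its coefficient of variation in HN mice was 55.2%, the highest of the 10 genes in any group.

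**Figure D2:**
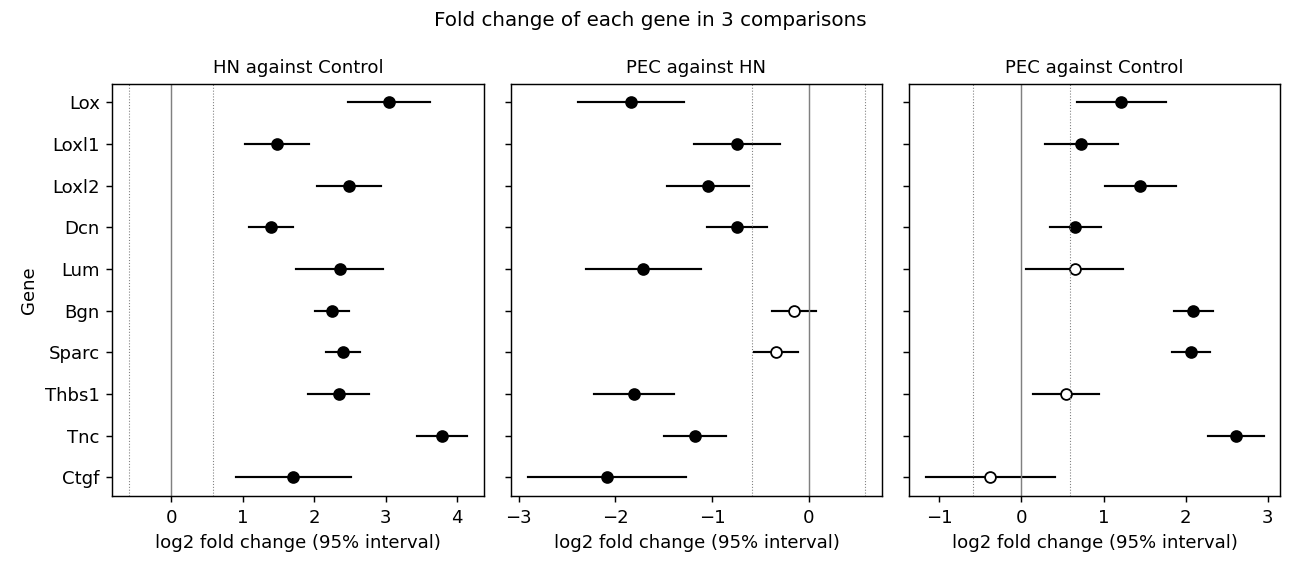
Log2 fold change of each gene in the 3 comparisons, with the 95% confidence interval of edgeR's quasi-likelihood fit as a bar. Filled points were called and open points were not, and dotted lines mark a fold change of 1.5. All 10 genes were called in HN against Control mice, and Bgn and Sparc were not called in PEC against HN mice.

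HN 4 had the highest scaled FPKM of the HN libraries for 8 of the 10 genes, the exceptions being Dcn and Lum, and HN 12 had the lowest for 8. In PEC the highest values were spread over the libraries, with 5 in PEC 2, 4 in PEC 3 and 1 in PEC 1. By mean scaled FPKM, Sparc was the most abundant of the 10 genes in all 3 groups and Lum the least. In Control mice the ranges of Sparc and Ctgf overlapped, as did those of Dcn and Loxl1, of Loxl2 and Lox, and of Lox and Tnc. In HN mice the ranges overlapped between neighbours from Sparc through Ctgf and Bgn to Thbs1, and again from Tnc through Dcn, Lox and Loxl1 to Loxl2. In PEC mice Sparc and Bgn stood above and apart from Ctgf and Thbs1, whose ranges overlapped.

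The ratio of each gene to Bgn within a library does not depend on the scaling of libraries. On the log2 scale of counts per kilobase, the ratio of Ctgf to Bgn was 0.48, 0.75 and 0.60 in Control 2, 4 and 5, 0.68, -0.25 and -0.59 in HN 4, 8 and 12, and -2.18, -2.13 and -1.34 in PEC 1, 2 and 3. The PEC libraries lay below all others. For Thbs1 the ratio was -0.48 ± 0.29 (SD, n = 3) in Control, -0.40 ± 0.25 in HN and -2.03 ± 0.27 in PEC libraries. For all 9 genes set against Bgn the ratio in PEC libraries lay below that in HN libraries without overlap, as it did for 21.7% of all 21391 tested genes other than Bgn. For 7 of the 9 it also lay below Control, the exceptions being Sparc, which overlapped, and Tnc, which was above. The share below Control was 76.6% over the 21391 genes, so a ratio to Bgn below Control was the general case and not a result about these genes. These ratios were not tested and depend on Bgn as well as on the other gene. Bgn was chosen as the reference after the values were seen. In PEC against HN mice its log2 fold change was -0.16, and those of the 9 genes ran from -0.34 (Sparc) to -2.09 (Ctgf). The lower ratios of the 9 genes in PEC than in HN libraries therefore follow in direction from the choice of Bgn. They restate those fold changes and are not a separate result.

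**Figure D3:**
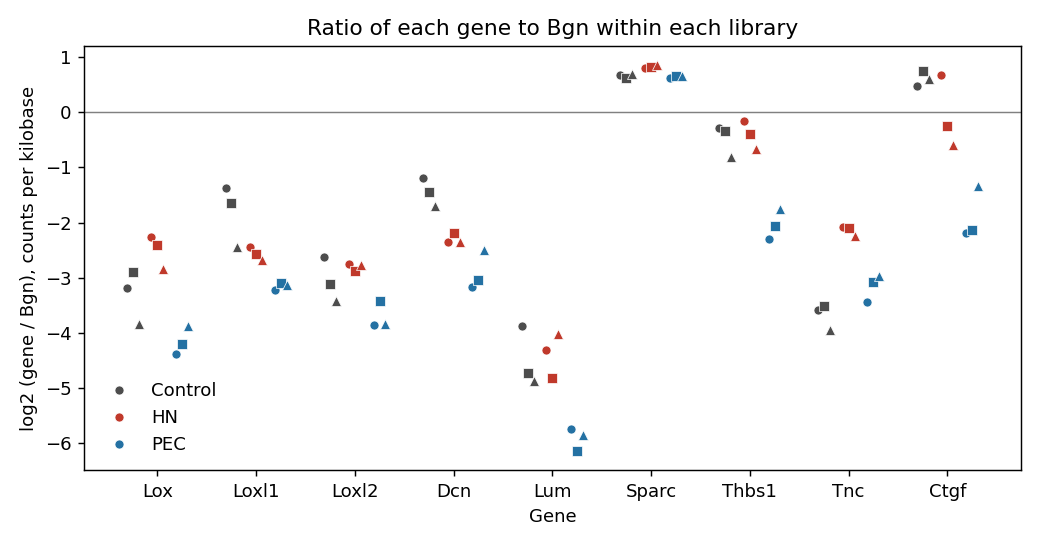
Log2 ratio of each gene to Bgn within each library, from counts per kilobase. Each point is 1 mouse. The ratio of Sparc ran from 0.62 to 0.86 over all libraries, whereas the PEC points of Ctgf and Thbs1 lie below those of the other groups.

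The genes with the pattern most like each of the 10, over the 9 libraries, were found from the root mean square difference of log2 CPM centred on each gene's mean. Bgn and Sparc were each other's nearest among the 10 (0.08), and Col6a1, from outside the set, was close to both, at 0.08 from Bgn and 0.13 from Sparc. Dcn was nearest to Enc1 (0.08) and then Mis18a (0.09), and Loxl1 to Efhd2 (0.09) and then Tpm4 (0.12). Loxl2 was nearest to Mrc2 (0.14) and Padi2 (0.17), Tnc to Kdelr3 and C1qc (both 0.17), and Lox to Sulf1 and Dock11 (both 0.19). Thbs1 was nearest to Mark1 (0.20) and Prrx1 (0.22), and Cemip was close to Lum (0.24). Ctgf had the least similar nearest genes, Pi15 (0.29) and Negr1 (0.34).

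The promoter table of RefSeq (GRCm38.p6) held entries for Sparc, Tnc and Bgn, which rose together in HN mice. Each entry spans 250 bases before to 50 after the annotated start, and 1 per gene is shown, on the strand of the gene. Sparc is at chr11:55420031-55420330 on the minus strand, Tnc at chr4:64046887-64047186 on the minus strand and Bgn at chrX:73483351-73483650 on the plus strand. The start of Tnc in RefSeq lies 26211 bases upstream of the gene start in the table. For Sparc the RefSeq start, at base 55420080, lies inside the gene as the table gives it, whose start is at base 55423183, and for Bgn the starts differ by 1 base. Tnc has another entry, at chr4:64046966-64047265, which overlaps the one shown; the choice between them was made after their matches were seen. Capitals mark the letters searched on both strands. GGAATG is bound by TEAD factors, CAGAC by SMAD factors and TGANTCA by AP-1. TATAAA has the letters of a TATA box, searched here at any position.
Sparc: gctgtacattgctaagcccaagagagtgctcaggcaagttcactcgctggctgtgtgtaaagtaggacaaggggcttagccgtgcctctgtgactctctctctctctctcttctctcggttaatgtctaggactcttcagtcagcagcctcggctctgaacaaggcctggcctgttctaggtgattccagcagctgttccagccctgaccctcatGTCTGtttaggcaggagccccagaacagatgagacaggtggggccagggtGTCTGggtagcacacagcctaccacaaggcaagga
Tnc: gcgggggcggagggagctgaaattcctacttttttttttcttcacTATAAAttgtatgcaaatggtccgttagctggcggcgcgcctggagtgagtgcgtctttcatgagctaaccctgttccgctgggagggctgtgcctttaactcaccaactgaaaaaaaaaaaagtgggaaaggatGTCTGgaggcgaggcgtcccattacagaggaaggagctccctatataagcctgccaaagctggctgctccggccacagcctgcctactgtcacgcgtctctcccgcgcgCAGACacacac
Bgn: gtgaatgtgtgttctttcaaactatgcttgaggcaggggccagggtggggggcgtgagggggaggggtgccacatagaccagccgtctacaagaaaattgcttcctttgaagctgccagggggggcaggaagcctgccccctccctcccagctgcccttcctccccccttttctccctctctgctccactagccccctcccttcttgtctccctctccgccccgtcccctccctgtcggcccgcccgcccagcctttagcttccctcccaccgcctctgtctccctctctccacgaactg
CAGAC occurred 2 times in the Sparc and 2 times in the Tnc window, and TATAAA 1 time in the Tnc window. That TATAAA lies 205 bases before the annotated start and was not shown to act as a TATA box. The stretch tatataag, nearer the start of Tnc, does not match the letters searched and was left unmarked. The other Tnc entry held CAGAC 1 time and TATAAA 1 time, while none of the 4 motifs occurred in the Bgn window. Over all 32851 promoters of the same length, 49.6% held CAGAC, 13.6% held TATAAA, 14.7% held GGAATG and 7.81% held TGANTCA. A match describes the letters and not binding.

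Other matrix genes were read from lists by function. Among 19 other matricellular genes tested, 12 were called higher and 1 lower in HN mice, with a median log2 fold change of 2.15. Spp1, which encodes osteopontin, rose from a mean scaled FPKM of 481.6 ± 30.2 (SD, n = 3) in Control to 8969 ± 834 in HN mice and was 7167 ± 867 in PEC mice. Thbs2 rose from 0.862 ± 0.110 in Control to 7.90 ± 0.902 in HN mice and was 2.66 ± 0.140 in PEC mice. Smoc2 rose from 1.47 ± 0.0656 to 12.96 ± 0.535 and was 5.48 ± 1.06 in PEC mice. Ccn5, with no count in any Control library and counts of 20 to 31 in HN libraries, was at least 6.05-fold higher in HN mice against a floor of 3 counts per library. Tnxb was the gene called lower (log2 -0.77, SE 0.15, edgeR adjusted p = 0.0028), and with library totals only 16 genes were called higher and 0 lower by edgeR. In PEC against HN mice 8 of the 19 were called lower and 1 higher, which was Tnxb.

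Of 17 elastic fibre and microfibril genes, edgeR called 16 higher and 0 lower in HN mice, with a median log2 fold change of 2.02, and 12 were called lower and 0 higher in PEC against HN mice, with a median of -1.09. Ltbp2 had counts of 4 to 8 in Control and of 6067 to 6779 in HN libraries, and 1966 to 2829 in PEC libraries. Fbn2, a fibrillin of developing tissue, had counts of 4 to 16 in Control, 1380 to 2016 in HN and 147 to 423 in PEC libraries. Mfap5 had a mean scaled FPKM of 0.103 ± 0.0259 in Control mice, 4.17 ± 0.361 in HN mice and 1.36 ± 0.270 in PEC mice (SD, n = 3), and Fbln2 of 0.429 ± 0.0492, 6.37 ± 0.423 and 1.67 ± 0.445.

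Of 26 collagen maturation genes tested, 10 were called higher and 2 lower in HN mice, and 9 were called lower and 0 higher in PEC against HN mice by edgeR. With library totals only, edgeR called 19 higher and 0 lower in HN mice, so the calls of lower genes were lost with that scaling. Adamts2, which removes the amino propeptide of procollagen, had a mean scaled FPKM of 0.466 ± 0.0969 in Control mice, 6.04 ± 0.389 in HN mice and 2.15 ± 0.247 in PEC mice (SD, n = 3). Bmp1, which removes the carboxyl propeptide, had 0.884 ± 0.0842, 7.04 ± 0.0680 and 3.65 ± 1.40. Fkbp10, a collagen chaperone, had 1.09 ± 0.251, 7.46 ± 0.561 and 3.71 ± 0.533. P4ha3, a prolyl hydroxylase subunit, had no count in Control and 69 to 92 counts in HN libraries, at least 17.8-fold higher against the same floor. Colgalt2 (log2 -0.94, SE 0.15, edgeR adjusted p = 0.00109) and P3h2 (log2 -0.73, SE 0.13, edgeR adjusted p = 0.00198) were the genes called lower in HN mice.

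Of 21 enzymes of chondroitin and dermatan sulfate chains, which decorate biglycan and decorin, 6 were called higher and 4 lower in HN mice. The shares over all tested genes were 17.7% higher and 14.7% lower. In PEC against HN mice 10 of the 21 enzymes were called lower and 0 higher, against 15.3% and 13.4% of all tested genes. With library totals only, 14 of the 21 enzymes were called higher and 2 lower in HN mice. Chst12 had a mean scaled FPKM of 0.751 ± 0.139 in Control mice, 3.28 ± 0.377 in HN mice and 1.96 ± 0.349 in PEC mice (SD, n = 3), and Chst14 had 1.07 ± 0.126, 3.76 ± 0.367 and 2.58 ± 0.405. Chsy3 had 0.118 ± 0.0481, 0.412 ± 0.026 and 0.106 ± 0.0358. Of those called lower in HN mice, Chst7 had 15.7 ± 2.20, 4.71 ± 0.0475 and 3.67 ± 1.12, and Csgalnact1 had 7.45 ± 1.09, 2.13 ± 0.412 and 1.19 ± 0.3304. Of 21 receptors of the 10 proteins, 12 were called higher and 1 lower in HN mice, and 10 were called lower and 0 higher in PEC against HN mice. Itgam, an integrin of myeloid cells, had 0.228 ± 0.105, 10.1 ± 2.86 and 3.42 ± 1.73, and Tlr2, a Toll-like receptor, had 1.35 ± 0.228, 8.45 ± 1.59 and 4.99 ± 0.850. Itga5, the fibronectin receptor subunit, had 1.95 ± 0.293, 7.05 ± 0.940 and 4.70 ± 1.67. Cd36, the thrombospondin receptor called lower, had 133.2 ± 30.6, 26.6 ± 2.75 and 36.2 ± 7.32.

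**Figure D4:**
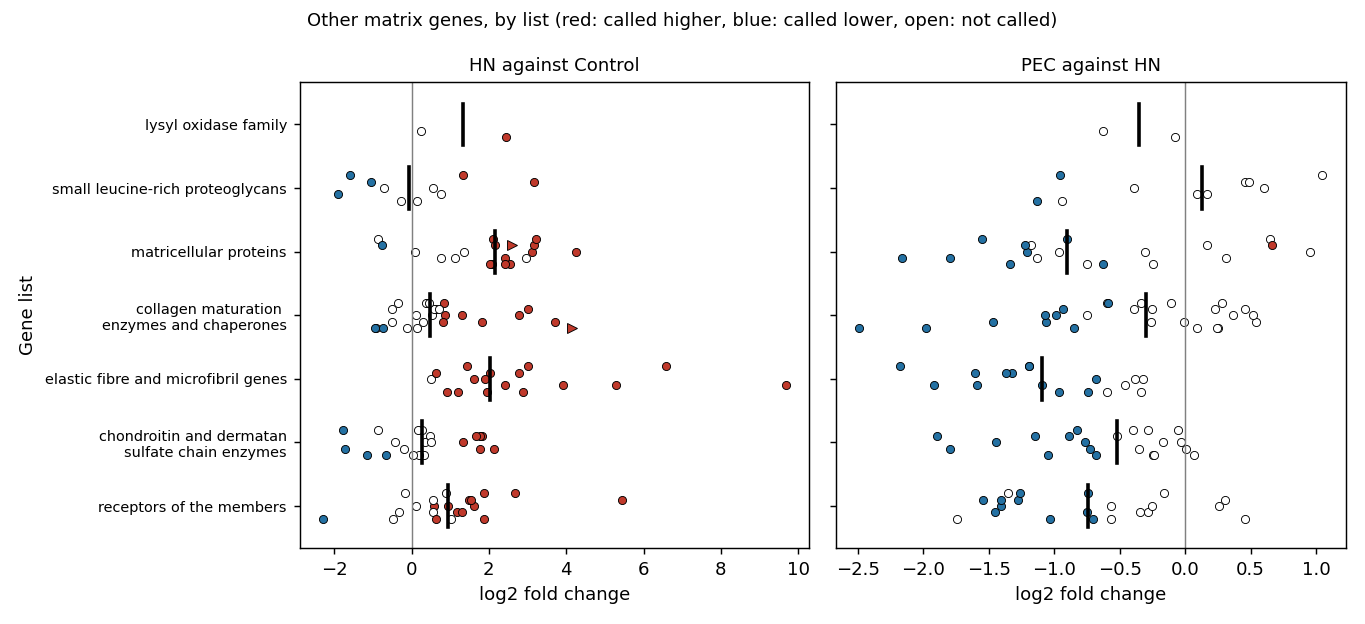
Log2 fold change of the other genes of each matrix list in HN against Control mice and in PEC against HN mice, with 1 point per tested gene and the list median as a bar. Red points were called higher, blue lower and open points were not called, and triangles show the lower bound for genes with no count in any Control library. In the elastic fibre list 16 of 17 genes were called higher in HN mice.

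Markers of several cell types differed between the groups as well, and their part in the results was not tested. Of 6 fibroblast and pericyte markers, 5 were called higher in HN mice, and the summed scaled FPKM was 54.1 to 55.1 in Control, 198.5 to 220.4 in HN and 132.2 to 153.3 in PEC libraries, with Acta2 the most abundant over all libraries and Col1a1 in each HN library. In PEC against HN mice Col1a1, Col1a2 and Pdgfra were called lower, whereas Acta2, Pdgfrb and Rgs5 were not called (Acta2 log2 0.06, edgeR adjusted p = 0.707). The 5 macrophage markers, led by Lyz2, were all called higher and summed to 43.7 to 47.2 in Control, 668.0 to 787.4 in HN and 308.2 to 408.7 in PEC libraries. The 4 T cell markers, led by Cd3d, were also called higher and summed to 0.771 to 0.892, 4.0 to 7.14 and 2.94 to 3.63. Of the macrophage markers, 4 were called lower in PEC against HN mice, and Cd68 was not called (log2 -0.19, edgeR adjusted p = 0.597). Of the T cell markers, 1 was called lower in PEC against HN mice, Cd3d, and Cd3g stood at log2 -0.16. The 5 proximal tubule markers, led by Slc34a1, were all called lower in HN mice and summed to 1296 to 1477 in Control, 284.4 to 299.3 in HN and 444.1 to 753.9 in PEC libraries.

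The remaining marker sums differed between groups in some cell types and overlapped in others. Platelet markers, led by Pf4, summed to 1.69 to 2.09 in Control, 7.18 to 10.4 in HN and 3.11 to 5.12 in PEC libraries. Of these 4 markers, 2 were called higher and 1 lower in HN mice, and 2 were called higher and 1 lower in PEC against HN mice. Itga2b went against the sum, with a log2 fold change of -0.84 in HN against Control mice (edgeR adjusted p = 0.00165) and of 1.01 in PEC against HN mice (edgeR adjusted p = 0.00086), and Gp1ba was called higher in PEC against HN mice (log2 1.23). B and plasma cell markers, led by Jchain, summed to 2.58 to 7.02 in Control, 12.3 to 24.2 in HN and 1.81 to 3.69 in PEC libraries. Of these 5 markers, 2 were called higher in HN mice, and 1, Jchain, was called lower in PEC against HN mice. Collecting duct markers, led by Aqp2, summed to 195.7 to 414.8, 100.7 to 153.7 and 159.1 to 214.6. Aqp2, which made up most of that sum, and Slc4a1 were called lower in HN mice. Scnn1g (log2 0.13) and Atp6v1b1 (log2 -0.26) were not called. In PEC against HN mice Slc4a1 was called higher (log2 1.37) and the others were not called. Smooth muscle markers, led by Des, summed to 6.05 to 6.94 in Control, 8.03 to 10.05 in HN and 10.9 to 18.9 in PEC libraries, so the groups did not overlap. Des was called higher in HN mice, and Myh11 was called higher in PEC against HN mice.

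Some sums were dominated by a single gene or overlapped. Thick limb and distal tubule markers summed to 1156 to 1457 over all libraries, most of it Umod, which was not called. Of the other markers on that list, Slc12a1 (log2 -1.40, edgeR adjusted p = 8.63e-05) and Slc12a3 (log2 -0.67, edgeR adjusted p = 0.00406) were called lower in HN mice, and Slc12a3 was called higher in PEC against HN mice (log2 0.80). Podocyte markers, led by Podxl, summed to 57.1 to 73.0 over all libraries with overlap between the groups. Endothelial markers, led by Emcn, summed to 35.9 to 56.2 over all libraries, with Kdr called lower in HN mice and Emcn called higher in PEC against HN mice (log2 0.59). Upk2 had no count in at least 1 library, as did the adipocyte markers Adipoq, Plin1 and Lep, and Lep had none in any Control library.

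PEC 3 differed from the other PEC libraries in its adipocyte markers, led by Adipoq, which summed to 103.9 there against 0.210 and 0.157 in PEC 1 and 2. Urothelial and mesothelial markers, led by Upk3a, summed to 27.6 in PEC 3 and to 2.26 and 0.998 in PEC 1 and 2. Adipocyte markers also summed to 7.28 in HN 12 and 4.90 in Control 2, and to at most 0.324 in the other HN and Control libraries. Without PEC 3, 7 of the 10 genes were called lower in PEC against HN mice, the call of Loxl1 being lost, and 6 were called higher in PEC against Control mice, the call of Dcn being lost (log2 0.52, under the fold required).

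**Figure D5:**
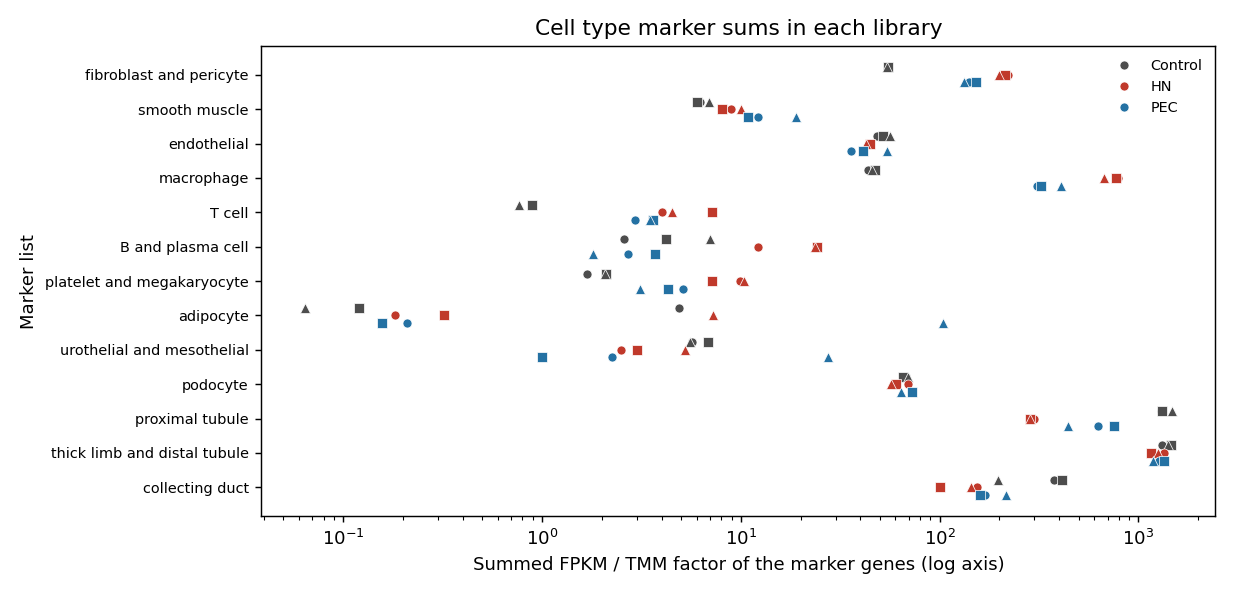
Summed scaled FPKM of the marker genes of each cell type in each library, on a log axis. Each point is 1 mouse. Macrophage markers lie at 668.0 to 787.4 in HN and at 43.7 to 47.2 in Control libraries, and adipocyte markers reach 103.9 in PEC 3.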

How the data were processed

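RNA was sequenced from kidneys of 3 Control, 3 HN and 3 PEC mice. The deposited counts are whole reads per gene, not normalized, and the deposited FPKM values relate them to gene length and library total. The submitters' processing notes name Bowtie 0.12.2 and the builds mm8 and mm9, but gene coordinates in the table equal those of GENCODE M21 on GRCm38 for 51991 of 55144 shared genes. The counting program and its strand setting are not given in the sources used here. The titles of the Control samples name HN mice; their disease state reads control and was used.

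The members and lists were chosen with earlier results of these data known. edgeR 4.0.16 in R 4.3.3 (filterByExpr, TMM, glmQLFit, glmQLFTest) was run on the counts in 1 fit of 9 libraries, and SEs were derived from the F statistic. Named genes were the 10 members, the other lysyl oxidases, up to 4 called genes with the largest log2 fold change in HN against Control mice per list and up to 2 called in the opposite direction, and genes among the 2 most like each member in pattern. Scaled FPKM, the ratios to Bgn, the long noncoding RNA share and the values of Gm21451 and Gm27177 were chosen after the values were seen. Replicates differed by more than sampling noise. Shared sequence was searched with blastn 2.17.0 with 95% identity and 100 aligned bases as minimums. Alternatives were DESeq2 1.42.0, limma 3.58.1 on log2(FPKM + 1) and log2(FPKM + 0.1), other scalings, filters and call rules, the 2 groups alone, offsets for length and GC content, and leaving out each mouse. The main steps were tested on simulated counts.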

Additional observations from a re-analysis of the deposited data

How the results depend on the processing

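In HN against Control mice all 10 genes kept their direction and call under 18 other ways of processing for each gene (180 values). In PEC against HN mice 175 of 180 values kept their side of the threshold and 5 lost the call, all of Loxl1 or Dcn. In PEC against Control mice 160 of 180 did, 4 lost the call (Loxl1 and Dcn) and 16 gained it (Thbs1 and Lum). At a fold change of at least 2, PEC against HN mice had 3594 genes called in place of 6141, and 33 other genes of the matrix lists in place of 52; PEC against Control mice had 5102 in place of 7784, since the fold required was larger. Of the collagen maturation and the chondroitin and dermatan sulfate lists, 5 genes each were then called lower in PEC against HN mice, in place of 9 and 10. In HN against Control mice 6 genes of the collagen maturation list were then called higher and 0 lower, in place of 10 and 2. With limma on log2(FPKM + 1), PEC against Control mice had 5066, where 15508 genes were tested in place of 21392.

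Scaling moved the median of all genes. With library totals only, the median log2 fold change was 0.56 in HN against Control, -0.21 in PEC against HN and 0.40 in PEC against Control mice, and 85.7%, 29.6% and 76.6% of calls were higher, in place of 54.5%, 46.8% and 52.1%. With limma on log2(FPKM + 1) these shares were 82.0%, 28.6% and 70.7%, at medians of 0.35, -0.19 and 0.19, and with log2(FPKM + 0.1) they were 83.2%, 28.4% and 70.9%, at medians of 0.47, -0.25 and 0.26. With upper quartile factors the share was 58.1% in PEC against HN and 63.6% in PEC against Control mice, at medians of 0.11 and 0.20.

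The offsets for length and GC content were centred in each library, a step added after a first version without it had been run and its values seen. Without centring, the library scaling was counted both in the offsets and in the TMM factors, and the medians of all genes were -0.61, 0.25 and -0.34, with 18.8%, 75.4% and 28.4% of calls higher. Dcn then turned to 0.10 in PEC against HN mice (edgeR adjusted p = 0.545), and Loxl1 lost its calls in both comparisons with PEC mice. With or without centring, Dcn was not called in that comparison. No paired analysis was possible because the labels pair no mice between groups. With 3 mice per group, differences below a fold change of 1.5 were not called whatever their p.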
